A study of Mus musculus with 46 samples.

Results

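GW3965, a synthetic agonist of the liver X receptors (LXR), was compared with Vehicle in bone marrow-derived macrophages (BMDM) of mice, which are macrophages grown in culture from bone marrow cells. The 5 libraries in which GW3965 was the only compound and the 6 Vehicle libraries were taken, 11 of the 46 libraries of the series. The 5 libraries in which GW3965 was combined with a second compound were left out of the comparison. The other single compounds of the series used here are 27-hydroxycholesterol (27HC), a ligand of both LXR and estrogen receptors that cells make from cholesterol, and GSK2033, an LXR antagonist, each with 5 libraries. The labels of these groups give the cell type and the treatment. They give no strain, age, sex, dose, time of exposure or stimulus, and do not say whether replicates came from separate cultures or animals. The p-values therefore measure the spread between these libraries, which may be technical.

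LXR alpha (Nr1h3) and LXR beta (Nr1h2) are nuclear receptors that bind DNA as partners of the retinoid X receptors. Oxysterols made from excess cholesterol are their natural ligands. In macrophages they switch on genes that export cholesterol, remodel phospholipids and make fatty acids, and ligand-bound LXR is also known to hold back inflammatory genes.

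Levels are CPM, the count of a gene relative to all counts of its library, from estimated read counts per gene, scaled between libraries, and a log2 fold change of 1 is a doubling with GW3965. A gene is said to have risen or fallen where its Benjamini-Hochberg adjusted p over all 13838 genes tested was below 0.05. Of these genes 6123, or 44.2%, passed: 3201 rose (23.1%) and 2922 fell (21.1%). Most changes were small. Of the genes that rose, 83.2% did so by under 1.5-fold, against 65.4% of those that fell. Large falls outnumbered large rises: 213 genes (1.54%) rose and 554 (4%) fell at least 2-fold, and 37 rose and 191 fell at least 4-fold. The median log2 fold change of all genes was 0.00. Of the 7715 genes not called, 2319 had a 95% interval within 0.2 of 0 on the log2 scale. All levels are from bulk RNA, in which fewer cells of a type and less RNA per cell cannot be told apart.

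**Figure D1:**
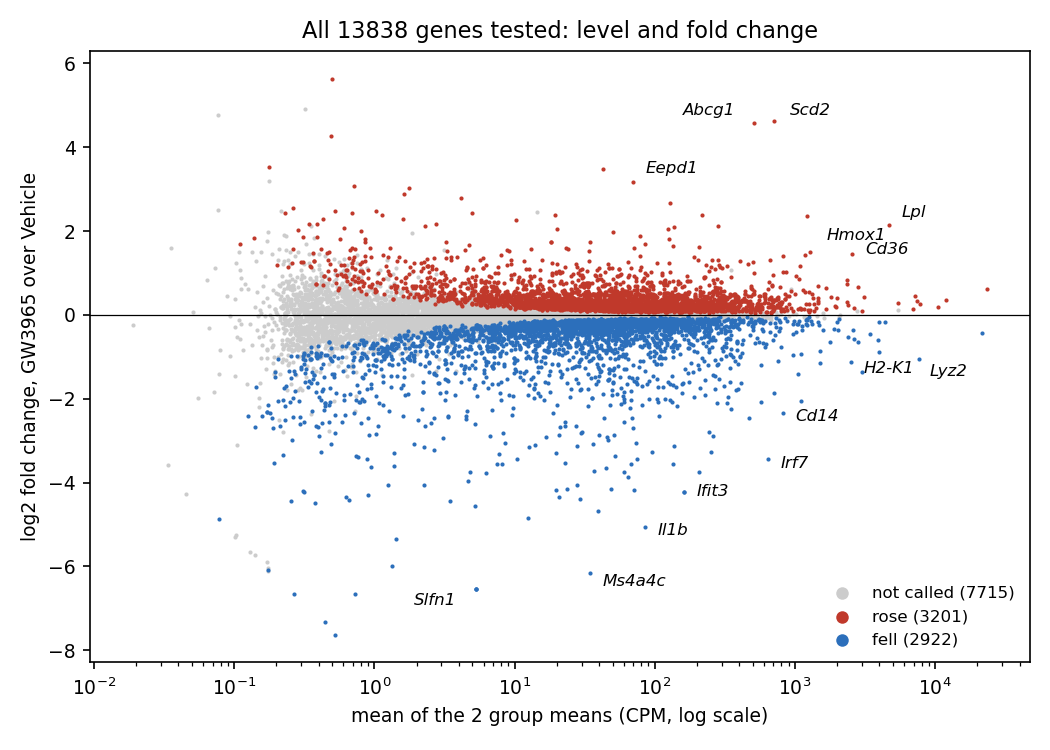
Each point is 1 of the 13838 genes tested; the horizontal axis is the mean of the GW3965 and Vehicle group means in CPM on a log scale, the vertical axis the log2 fold change of GW3965 over Vehicle, and red, blue and grey mark the 3201 genes that rose, the 2922 that fell and the 7715 not called. The cloud reaches further down than up, and Scd2 and Abcg1 stand highest among abundant genes.

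Total estimated counts ran from 19354093 to 28451168 over the 11 libraries. Mitochondrially encoded transcripts took 2.03% to 2.28% of the counts with GW3965 and 1.43% to 1.68% with Vehicle. The first principal component of log2 CPM held 47% of the variance and separated the groups, and on the second, with 7.2%, GW3965 replicate 1 stood apart. Without that library 2920 genes rose and 2932 fell. The library codes in the labels carry 1 letter per treatment, so anything shared by libraries of a letter cannot be told apart from treatment. Macrophage markers were abundant in every library. Markers of neutrophils, natural killer cells, dendritic cells and erythroid cells summed to at most 2.97 CPM in any of the 11 libraries, and Cd79a of B cells was at 0 in all of them. Summed lymphocyte markers stood at 9.67 to 13.4 CPM with GW3965 and 20.8 to 25.2 with Vehicle, monocyte markers at 25.2 to 29.7 and 64.7 to 76.9, mast cell and basophil markers at 5.79 to 7.34 and 9.76 to 11.4, and osteoclast markers at 134.8 to 139.9 and 223.6 to 265.2. Of the 6 osteoclast markers tested 3 fell (Mmp9, Acp5 and Nfatc1) and 2 rose (Atp6v0d2 and Dcstamp), so the members did not share the direction of the sum. Of 5 lymphocyte markers tested 2 fell (Cd4 and Cd79b) and 3 were not called. Of 3 mast cell and basophil markers tested 1 fell (Mcpt8) and 2 were not called. Of 6 monocyte markers tested 4 fell and 2 rose. Stromal markers, which include collagen genes, summed to 3175 to 3833 CPM with GW3965 and 4279 to 5052 with Vehicle. Their part in the results was not tested. Of the rows tested, 331 in 165 sets held identical values in every library, and how they came to be identical was not tested. Slfn1 (3 rows) and Treml4, Trem2, Egr2 and Kif11 (2 rows each) are among them, so their levels may be shares of a gene's reads.

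Promoter windows of genes at both ends of the response are shown because they hold the elements that the 2 sides are known for. They come from RefSeq (GRCm38.p6), run 5′ to 3′ on the gene's strand and end at the base before the transcript start. In Abca1, the cholesterol exporter, the window is chr4:53159896-53160145 on the minus strand, and capitals mark a match to the LXR element, in which AGGTCA is repeated after any 4 bases, with 3 mismatches allowed, on the opposite strand, 67 bases before the start. The number of mismatches allowed was raised to 3 after the window had been seen.
Abca1: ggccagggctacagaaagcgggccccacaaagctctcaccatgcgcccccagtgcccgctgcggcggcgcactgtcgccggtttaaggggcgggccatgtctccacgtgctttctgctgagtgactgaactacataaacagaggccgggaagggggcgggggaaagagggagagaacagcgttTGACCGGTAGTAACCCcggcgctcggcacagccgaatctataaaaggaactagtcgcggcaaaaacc
In Isg15, which encodes a ubiquitin-like protein induced by interferon, the window is chr4:156200819-156201068 on the minus strand. Capitals mark 3 overlapping matches to GAAA repeated after any 2 bases, the core of the interferon-stimulated response element that the IRF proteins bind, which begin 78, 72 and 66 bases before the start.
Isg15: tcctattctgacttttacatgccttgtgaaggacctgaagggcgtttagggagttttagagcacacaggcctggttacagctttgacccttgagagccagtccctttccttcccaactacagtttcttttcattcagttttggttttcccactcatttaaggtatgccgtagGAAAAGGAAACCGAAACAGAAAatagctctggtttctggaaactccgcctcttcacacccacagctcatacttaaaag
In Ifit3, whose product binds viral RNA complexes, the window is chr19:34583279-34583528 on the plus strand, with 2 matches on the opposite strand, and Ifit1, at chr19:34640639-34640888, holds 2 as well.
Ifit3: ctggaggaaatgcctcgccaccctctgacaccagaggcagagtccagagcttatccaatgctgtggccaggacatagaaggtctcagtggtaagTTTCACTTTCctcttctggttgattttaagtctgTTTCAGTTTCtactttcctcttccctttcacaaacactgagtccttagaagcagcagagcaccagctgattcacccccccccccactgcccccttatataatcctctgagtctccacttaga
Ifit1: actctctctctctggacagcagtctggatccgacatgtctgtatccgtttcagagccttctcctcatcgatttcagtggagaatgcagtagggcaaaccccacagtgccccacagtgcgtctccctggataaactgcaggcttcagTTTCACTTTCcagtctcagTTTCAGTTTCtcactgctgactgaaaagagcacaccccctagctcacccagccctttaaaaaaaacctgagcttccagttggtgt

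The GAAA repeat, searched on both strands of windows from 250 bases before to 50 after the start, stood in 3.33% of the promoter windows of all genes tested. It stood in 28.5% of the windows of genes that fell at least 4-fold (41 of 144), in 18.4% of those that fell 2- to 4-fold (58 of 315) and in 3.68% of those that fell less (89 of 2420). Among genes not called the share was 2.48%, and among genes that rose at least 2-fold it was 1.06% (2 of 188). Of the lists described below, 19 of 37 windows of antiviral effectors (51.4%) and 9 of 11 of interferon-induced GTPases (81.8%) held it, and 0 of 18 windows of LXR targets. A gene can have several windows or none, and those 18 belong to 13 of the 19 LXR targets tested. With 3 mismatches the LXR element is common: 18% of windows of genes tested held a match, 22.3% of those that rose and 23.5% of those that fell at least 2-fold. Among lists it stood in 5 of 18 windows of LXR targets (27.8%), 10 of 21 of MHC class I genes (47.6%) and 7 of 16 of chemokines (43.8%). A match describes the letters of a window and shows no binding.

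**Figure D2:**
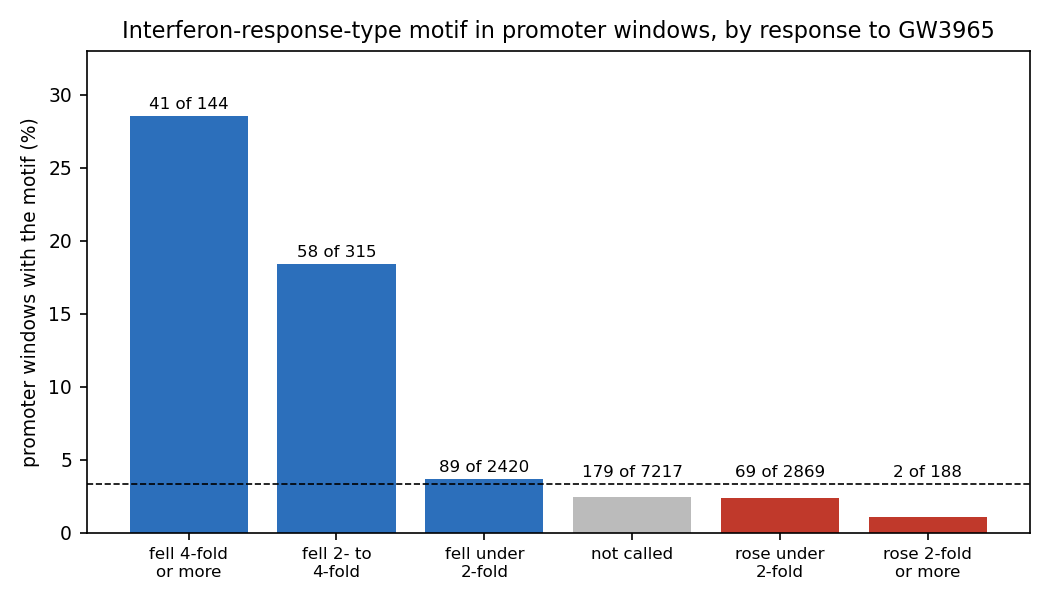
Bars give the percentage of promoter windows (250 bases before to 50 after the start) that hold GAAA repeated after any 2 bases on either strand, by how the gene responded to GW3965, with counts of windows above them and the 3.33% of all genes tested as a dashed line. The share is highest, 28.5%, among genes that fell at least 4-fold and lowest, 1.06%, among those that rose at least 2-fold.

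Known LXR targets rose as a group. Of 19 tested, 17 rose, 13 of them at least 2-fold, and their median log2 fold change was 2.1 beside 0.00 for all genes. Abca1, which loads cholesterol onto apolipoprotein A-I, stood at 1869, 1981, 1905, 2284 and 2144 CPM in the 5 GW3965 libraries and at 344.6 to 428.8 CPM with Vehicle (median 397.1). It rose 5.17-fold (log2 2.37 ± 0.064, adjusted p = 3.69e-31), with no overlap between the groups. Scd1, a desaturase that makes oleic acid, stood at 72.7, 82.6, 77.3, 81.1 and 80.4 CPM with GW3965 and at 6.18 to 9.31 CPM with Vehicle (median 6.72), and rose 11.1-fold (log2 3.47 ± 0.079, adjusted p = 7.28e-35). Every GW3965 library was far above every Vehicle library for both genes. Eepd1, which promotes ABCA1-mediated efflux, stood at 126.2, 125.1, 128, 125.2 and 126.9 CPM against 12.4 to 15.2 CPM with Vehicle (median 14.2), and rose 9.06-fold (log2 3.18 ± 0.048, adjusted p = 1.84e-41). Lpl, the lipase that frees fatty acids from lipoproteins, rose by 2.14 on the log2 scale, and Cd5l, a secreted macrophage protein, by 2.13. The smaller rises included Arl4c, a small GTPase, at 0.91 ± 0.02 and Mertk, a receptor for dying cells, at 0.81 ± 0.043.

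The exceptions among the targets were Apoc2 and the receptor gene itself. Apoc2, the cofactor of lipoprotein lipase, ran from 1.69 to 7.42 CPM with GW3965 and from 2.99 to 6.36 with Vehicle and was not called (0.17 ± 0.33). Nr1h3 stood at 42.5, 40, 42.2, 39.6 and 51.1 CPM with GW3965 and at 65.8 to 74.6 CPM with Vehicle (median 71.9) and fell 1.66-fold (log2 -0.73 ± 0.061, adjusted p = 6.46e-14). All 5 GW3965 libraries were below all 6 Vehicle libraries, with replicate 5 the highest of them. Nr1h2 was at 0.01 ± 0.036 (95% interval -0.06 to 0.09), and the partner genes Rxra and Rxrb at -0.15 ± 0.027, a small fall, and -0.08 ± 0.034 (adjusted p = 0.0532, not called here but called lower under 14 of 22 alternative settings). Esr1, the gene of estrogen receptor alpha, went from 6.18 ± 0.32 CPM (SD, n = 6) to 2.53 ± 0.118 (SD, n = 5) and fell by 1.29 on the log2 scale. Among all genes 23.1% rose and 21.1% fell. Of the 27 nuclear receptor and coregulator genes tested 7 rose and 11 fell (median -0.08), with Nr4a1 lowest (-1.52 ± 0.099). Without GW3965 replicate 3 or 4, or without a filter on low counts, 4 rose.

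Fatty acid synthesis and desaturation genes rose in 16 of 21 cases, 1 fell (Oxsm, -0.18 ± 0.05) and the median was 0.44. Srebf1, the gene of the transcription factor that drives them, rose 5.2-fold (log2 2.38 ± 0.048, adjusted p = 6.05e-37). Its annotated span overlaps that of Rai1 for a stretch at the ends of both genes, and Rai1 rose by 0.40. Whether reads were shared between them was not tested. Along the pathway Acaca, which makes malonyl-CoA, rose by 1.12, Mid1ip1, which helps it polymerise, by 1.70, and Fasn by 2.1. Fasn stood at 270.1, 176.6, 224.3, 218.9 and 218 CPM with GW3965 and at 39.2 to 68.3 CPM with Vehicle (median 49.5), with no overlap. Elovl5, an elongase of polyunsaturated chains, rose by 1.01. Of this list Scd1, Scd2, Fasn and Srebf1 are also among the LXR targets above, so the 2 lists are not separate.

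Genes of the same cluster rose by different amounts. On chromosome 19, Fads2 (ENSMUSG00000024665, chromosome 19, 10062765 to 10101746, minus strand), the delta-6 desaturase, stood at 33.2, 31.9, 30.9, 32 and 34.5 CPM with GW3965 and at 4.86 to 8.31 CPM with Vehicle (median 6.01) and rose 5.21-fold (log2 2.38 ± 0.093, adjusted p = 9.28e-26). Its neighbours Fads3 and Fads1 rose by 0.42 and 0.25. Elsewhere on that chromosome Scd2 (ENSMUSG00000025203, chromosome 19, 44293674 to 44306864, plus strand), Scd4 (ENSMUSG00000050195, chromosome 19, 44333092 to 44346743, plus strand) and Scd1 (ENSMUSG00000037071, chromosome 19, 44394455 to 44407879, minus strand) lie side by side, and all 3 rose. Scd4 went from 0 to 0.0404 CPM with Vehicle to 0.678 to 1.32 with GW3965, too close to 0 for a firm fold change. Reads of these closely related genes may have been split between them.

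**Figure D3:**
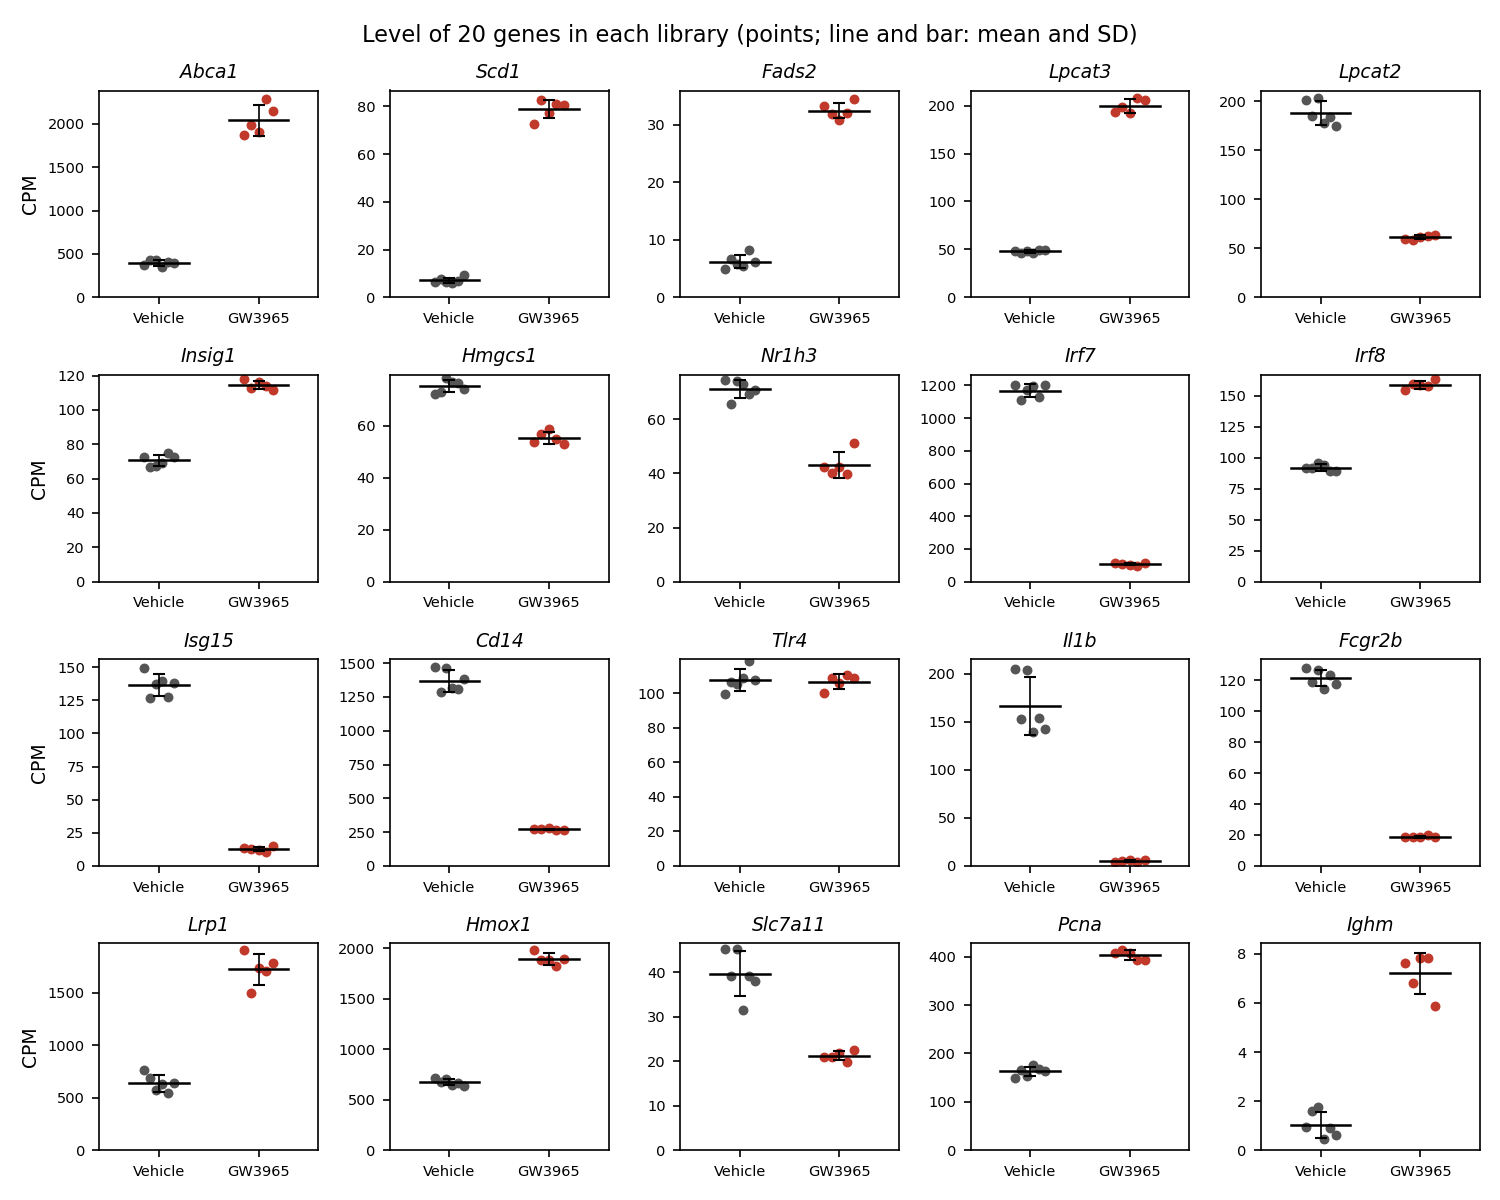
Each panel plots 1 gene's level in CPM on a linear axis from 0, with 1 point per library, the mean as a line and the SD as a bar, for 6 Vehicle libraries (grey) and 5 GW3965 libraries (red). In 19 of the 20 panels the groups do not overlap; the exception is Tlr4.

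The lysophospholipid acyltransferase genes Lpcat3 and Lpcat2, whose products set the acyl chains of membrane phospholipids, moved in opposite directions. Lpcat3 (ENSMUSG00000004270, chromosome 6, 124663027 to 124704418, plus strand), which inserts polyunsaturated chains, stood at 192.9, 198.4, 191.9, 207.6 and 205.8 CPM with GW3965 and at 46.1 to 49.7 CPM with Vehicle (median 48.6). Lpcat2 (ENSMUSG00000033192, chromosome 8, 92855339 to 92919279, plus strand), which also makes platelet-activating factor, stood at 60, 58.5, 61.5, 63.1 and 63.6 CPM and at 174.7 to 203.8 CPM with Vehicle (median 184.5). Lpcat3 rose 4.14-fold (log2 2.05 ± 0.033, adjusted p = 2.91e-40) and Lpcat2 fell 3.06-fold (log2 -1.61 ± 0.042, adjusted p = 1.01e-32). They were the only 2 of 32 glycerolipid and phospholipid synthesis genes tested to change at least 2-fold. Of the 32, 13 rose and 9 fell (median 0.06), where 23.1% of all genes rose and 21.1% fell. The annotated span of Lpcat3 overlaps that of Emg1, which rose by 0.32. Whether reads were shared between them was not tested.

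Cholesterol synthesis and uptake genes showed no common direction against Vehicle. Of 25 tested, 6 rose, 7 fell and 12 were not called, with a median of 0.03, none of them changed 2-fold, and the 13 called are a share near the 44.2% of all genes. Insig1, which retains the sterol sensor in the endoplasmic reticulum, rose most, at 117.9, 112.7, 116.1, 113.7 and 111.8 CPM with GW3965 and 66.8 to 74.9 CPM with Vehicle (median 70.8), a change of 0.70 ± 0.032. The synthesis enzymes Fdft1 (-0.68 ± 0.071), Idi1 (-0.61 ± 0.05) and Hmgcs1 (-0.44 ± 0.037) fell, and Pmvk (0.42 ± 0.068) and Fdps (0.33 ± 0.056) rose. Among 24 genes of sterol storage and transport 9 rose and 9 fell (median -0.05). Scarb1, a receptor for high-density lipoprotein (0.95 ± 0.043), Lipa, the lysosomal cholesteryl ester hydrolase (0.83 ± 0.026), and Soat1, which esterifies cholesterol (0.41 ± 0.032), rose. Npc2, which carries cholesterol out of lysosomes (-0.64 ± 0.03), and Abca9 (-0.81 ± 0.059) fell. Of 16 lipid droplet and lipolysis genes 8 rose and 2 fell (median 0.23), Cd36, a fatty acid and oxidised lipoprotein receptor, rising most (1.46 ± 0.025) and Lipe (-0.69 ± 0.054) and Bscl2 (-0.51 ± 0.044) falling.

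Interferon-induced genes fell throughout. All 41 antiviral effectors tested fell, 39 of them at least 2-fold (median -1.90), and all 15 GTPases fell at least 2-fold (median -2.87), where 21.1% of all genes fell and 4% fell 2-fold. Isg15 (ENSMUSG00000035692, chromosome 4, 156199424 to 156200818, minus strand) stood at 13.4, 12.7, 12, 10.5 and 15.1 CPM with GW3965 and at 127 to 149.2 CPM with Vehicle (median 137.8) and fell 10.8-fold (log2 -3.43 ± 0.072, adjusted p = 8.05e-36). Ifit3 (ENSMUSG00000074896, chromosome 19, 34583531 to 34588731, plus strand) stood at 19.2, 16, 15.9, 15.9 and 15.4 CPM and at 293.1 to 325.6 CPM with Vehicle (median 301.8) and fell 18.6-fold (log2 -4.22 ± 0.091, adjusted p = 8.05e-35). Gbp6, a guanylate-binding protein that attacks vacuoles of intracellular pathogens, stood at 4.76, 3.69, 4.1, 3.1 and 2.73 CPM and at 39.6 to 48.4 CPM with Vehicle (median 41.4) and fell 11.7-fold (log2 -3.54 ± 0.094, adjusted p = 2.20e-32). None of the 56 genes of both lists overlapped between the groups, and the share of all genes without overlap was 29.5%. Slfn1 was at 0.0529 to 0.188 CPM with GW3965 and 9.51 to 11 with Vehicle, too close to 0 for a firm fold change. The smallest fall of the effector list was that of Slfn2 (-0.93 ± 0.041). Gbp, Slfn and Ifit genes have close relatives, and reads may have been shared among them.

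The receptors and the factors above these genes divided. Of 26 tested 19 fell, 4 rose and 3 were not called (median -0.49). The subunits of the type I interferon receptor were not called: Ifnar1 was at -0.02 ± 0.031 (95% interval -0.09 to 0.04) and Ifnar2 at -0.01 ± 0.024 (95% interval -0.05 to 0.04). Irf3, the factor that starts interferon production, was at 0.10 ± 0.059 (not called). The interferon-inducible factors fell, with Irf7 at 111.3, 107.4, 104.7, 98.5 and 113.8 CPM with GW3965 and 1109 to 1203 CPM with Vehicle (median 1185) and Stat2 at -2.07 ± 0.064. Zbp1, a sensor of Z-form nucleic acid, fell by 3.36, and Usp18, which removes ISG15 from proteins, by 2.92. Irf8 moved the other way, at 155.1, 159.6, 158.7, 158 and 163.4 CPM with GW3965 and 89.1 to 95.9 CPM with Vehicle (median 91.9), and rose 1.73-fold (log2 0.79 ± 0.024, adjusted p = 5.74e-30). Irf5 (0.35 ± 0.028), Mavs (0.31 ± 0.036) and Ifngr1 (0.30 ± 0.02), a subunit of the interferon gamma receptor, rose too. Transcripts of Ifnb1 were too few to test.

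**Figure D4:**
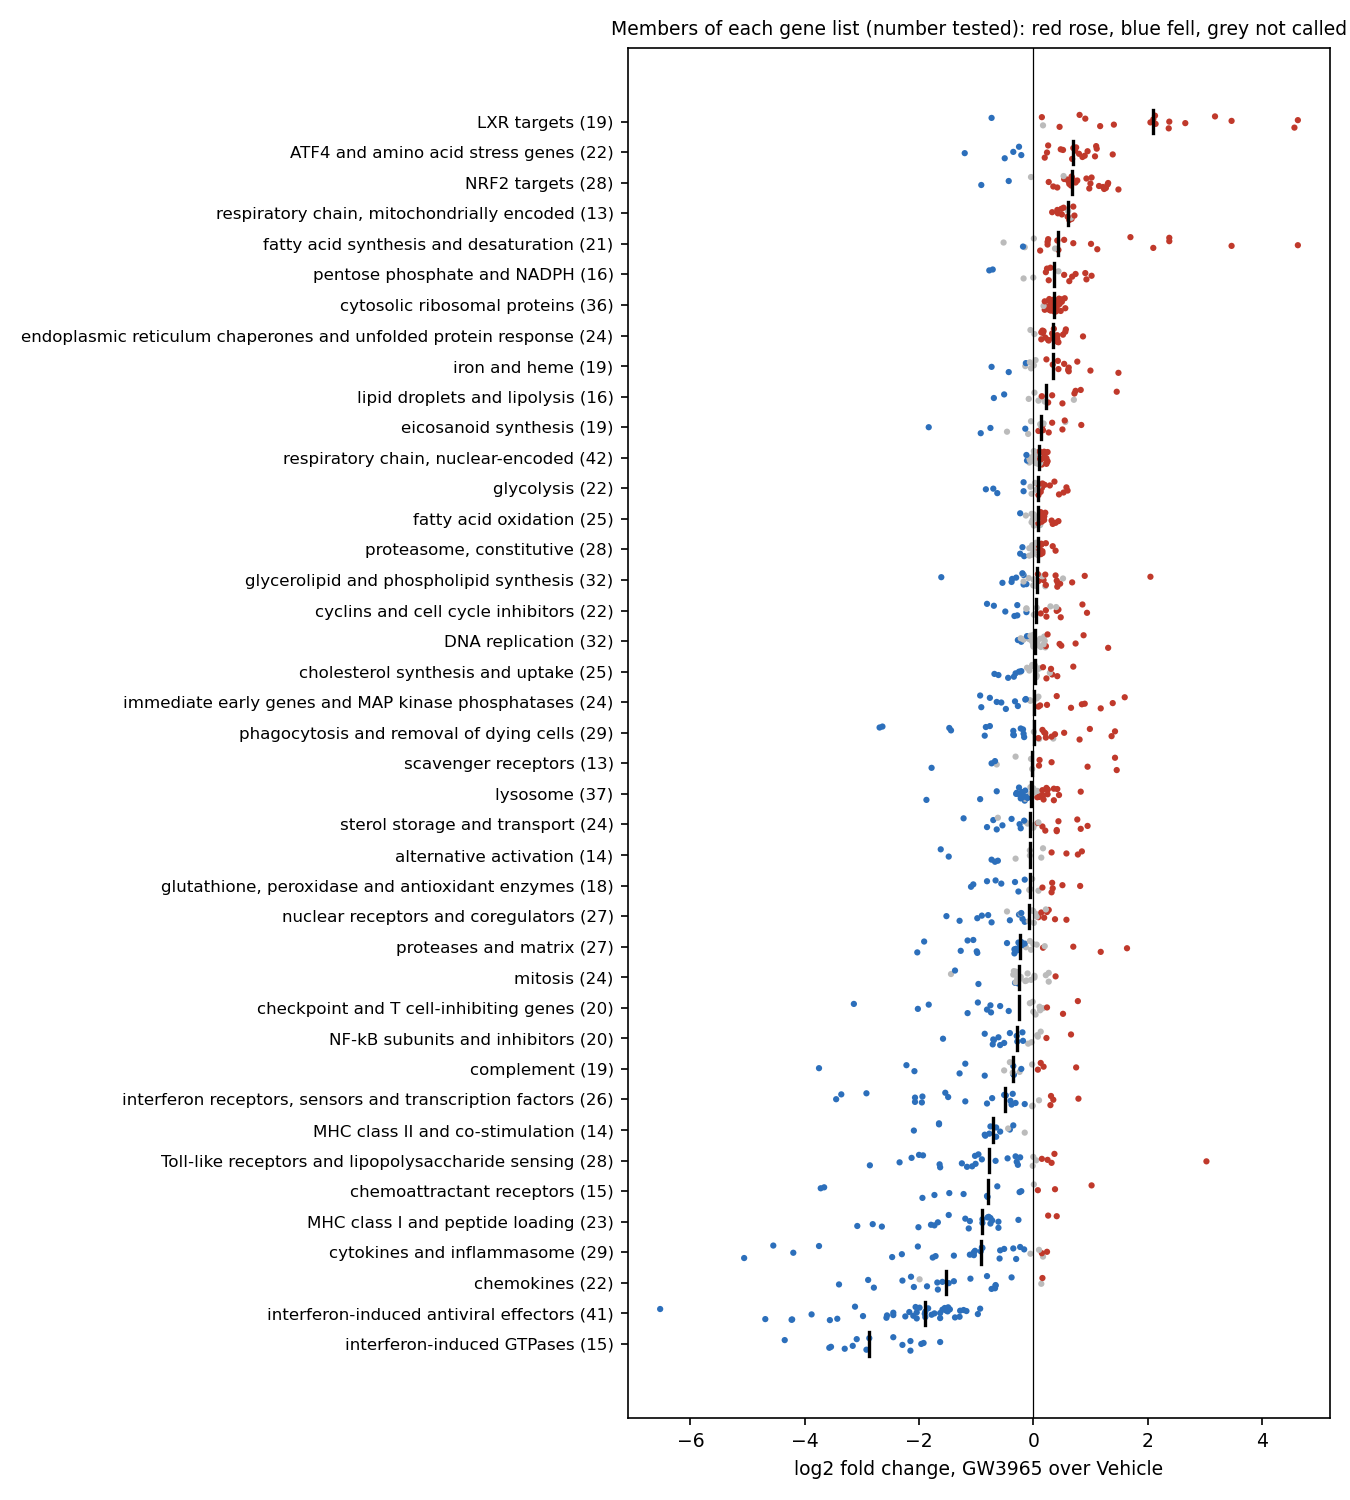
Each row is a gene list with the number of members tested, each point a member's log2 fold change of GW3965 over Vehicle, red where it rose, blue where it fell and grey where it was not called, and the black mark the list's median. The rows run from LXR targets (median 2.1) at the top to interferon-induced GTPases (median -2.87) at the bottom.

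Genes of lipopolysaccharide sensing moved in different directions. Tlr4 stood at 100.1, 108.7, 105.8, 110.9 and 109 CPM with GW3965 and at 99.6 to 119 CPM with Vehicle (median 107.2) and was not called (-0.01 ± 0.044, 95% interval -0.10 to 0.08). Cd14, which hands lipopolysaccharide to it, stood at 273.9, 270.6, 278.7, 263.9 and 266.7 CPM and at 1287 to 1470 CPM with Vehicle (median 1348) and fell 5.06-fold (log2 -2.34 ± 0.042, adjusted p = 1.76e-38). Lbp, the soluble protein that delivers lipopolysaccharide to CD14, stood at 3.28, 3.69, 3.18, 3.53 and 2.17 CPM and at 0.162 to 0.733 CPM with Vehicle (median 0.299) and rose 8.17-fold (log2 3.03 ± 0.33, adjusted p = 1.43e-10). Its Vehicle level is too close to 0 for a firm fold change. The groups overlapped for Tlr4 alone of these 3. Of the 28 genes of this list 20 fell and 5 rose (median -0.78). Tlr7, a sensor of single-stranded RNA (-1.64 ± 0.046), Irak3, an inhibitory kinase (-2.13 ± 0.064), and Clec4e, a receptor for mycobacterial glycolipid (-2.0 on the log2 scale), fell. Beside Lbp, Clec7a (0.37 ± 0.029), Tlr13 (0.32 ± 0.033), Ticam1 (0.25 ± 0.044) and Irak1 (0.15 ± 0.057, not called without GW3965 replicate 2, 3 or 4) rose, and the adaptors Tirap (0.05 ± 0.068) and Traf6 (-0.00 ± 0.049) were not called.

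Among NF-kB genes 13 of 20 fell and 2 rose (median -0.29). Of the transactivating subunits Rela (-0.09 ± 0.08) and Rel (-0.03 ± 0.048) were not called. Relb, also such a subunit, fell, at 49.2 to 56.8 CPM with GW3965 and 71.1 to 80.7 with Vehicle. Nfkbiz, an inducible cofactor of secondary response genes, fell by 1.58. Ikbkg, the scaffold of the IKK complex (0.66 ± 0.07), and Tnfaip3, the inhibitor A20 (0.23 ± 0.049), rose. Cytokine and inflammasome genes fell in 24 of 29 cases (median -0.92). Il1b (ENSMUSG00000027398, chromosome 2, 129364570 to 129371139, minus strand) stood at 4.34, 4.62, 6.67, 3.6 and 5.93 CPM with GW3965 and at 139.4 to 205.1 CPM with Vehicle (median 153.5). Saa3, an acute-phase apolipoprotein, stood at 24.9, 27.5, 38.6, 19.5 and 32.8 CPM and at 302.2 to 463.9 CPM with Vehicle (median 398.7). Neither overlapped, and the falls were 33.5-fold (log2 -5.06 ± 0.21, adjusted p = 9.78e-24) and 13.5-fold (log2 -3.75 ± 0.18, adjusted p = 2.98e-21). Il1rn, the antagonist of the interleukin 1 receptor, fell too (-1.76 ± 0.077). Il1a, next to Il1b on chromosome 2, fell by 0.59 with overlapping groups. Tgfb1 (0.24 ± 0.026) and Csf1 (0.15 ± 0.046, not called without GW3965 replicate 3) rose, and Il10 (0.17 ± 0.19), Lif (-0.05 ± 0.13) and Nlrp1b (0.10 ± 0.19) were not called.

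Chemokine genes fell in 19 of 22 cases, 13 of them at least 2-fold (median -1.54). Ccl5, a chemokine for T cells and monocytes, stood at 60.3, 58.2, 64.2, 59.9 and 64.6 CPM with GW3965 and at 394.1 to 449 CPM with Vehicle (median 423.4) and fell 6.9-fold (log2 -2.79 ± 0.05, adjusted p = 1.76e-38). Cxcl10, induced by interferon, went from 11.8 ± 0.897 (SD, n = 6) to 1.61 ± 0.373 CPM (SD, n = 5), a change of -2.89 ± 0.18. Cxcl14 alone rose (0.16 ± 0.045), and Ccl17 (0.14 ± 0.29) and the scarce Cxcl11 (-1.99 ± 0.86) were not called. On the receiving side 11 of 15 chemoattractant receptor genes fell and 3 rose (median -0.80). The formyl peptide receptors Fpr1 and Fpr2, both on chromosome 17, fell most. Fpr2 stood at 6.45, 6.31, 8.05, 5.39 and 7.16 CPM with GW3965 and at 69.7 to 99.7 CPM with Vehicle (median 81.5), a change of -3.66 ± 0.13, and Fpr1 changed by -3.72 ± 0.13. Ccr1 (-1.94 ± 0.086) fell as well. Gpr183, whose ligands are oxysterols, was the strongest of the risers, at 29, 28.8, 29, 30.8 and 29.1 CPM against 13.2 to 16.9 CPM with Vehicle (median 13.9) (1.02 ± 0.055), followed by C5ar2 (0.38 ± 0.08) and C5ar1 (0.08 ± 0.033), whose call was lost in 10 of 22 alternative settings.

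Fc receptors for antibody fell whether they activate or inhibit. The inhibitory Fcgr2b (ENSMUSG00000026656, chromosome 1, 170958617 to 170976547, minus strand) stood at 18.4, 18.4, 18.6, 20 and 18.4 CPM with GW3965 and at 114.3 to 128.3 CPM with Vehicle (median 121). The activating Fcgr4 (ENSMUSG00000059089, chromosome 1, 171018920 to 171029761, plus strand) stood at 7.09, 6.44, 5.8, 5.96 and 6.45 CPM and at 39.1 to 39.9 CPM with Vehicle (median 39.4). They fell 6.47-fold (log2 -2.69 ± 0.053, adjusted p = 3.71e-37) and 6.23-fold (log2 -2.64 ± 0.054, adjusted p = 1.28e-36). Fcgr1 (-1.47 ± 0.042), Fcgr3 (-0.83 ± 0.03) and their shared signalling chain Fcer1g (-0.76 ± 0.034) fell with no overlap between the groups. Over the 29 phagocytosis genes tested, however, 12 rose and 14 fell (median 0.01). Lrp1, an endocytic receptor for remnants and dying cells, stood at 1903, 1493, 1731, 1703 and 1782 CPM with GW3965 and at 543.8 to 765.7 CPM with Vehicle (median 631.7) and rose 2.7-fold (log2 1.43 ± 0.085, adjusted p = 2.31e-18).

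Complement genes fell in 10 of 19 cases and rose in 4 (median -0.35), where 21.1% of all genes fell and 23.1% rose. Cfb, the protease that builds the convertase of the alternative pathway, stood at 9.15, 8.01, 8.62, 6.49 and 9.89 CPM with GW3965 and at 97.6 to 128.8 CPM with Vehicle (median 111.8). Cfb fell 13.5-fold (log2 -3.75 ± 0.1, adjusted p = 7.39e-31) with no overlap between the groups, and C3 fell 4.23-fold (log2 -2.08 ± 0.064, adjusted p = 2.73e-29). Cd55, a membrane inhibitor of the convertase, fell by 2.22, and C1qa of the classical pathway by 0.85.

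Genes of antigen presentation fell in both MHC classes. Of 23 genes of MHC class I and peptide loading 21 fell (median -0.89), and the other two, the chaperones Calr (0.41 ± 0.021) and Pdia3 (0.26 ± 0.019), rose. H2-K1, a classical class I chain, stood at 1617, 1577, 1576, 1456 and 1573 CPM with GW3965 and at 3269 to 3539 CPM with Vehicle (median 3425) (-1.13 ± 0.031). Tap1, the peptide transporter, changed by -1.67 ± 0.051. H2-Q7 changed by -3.08 ± 0.066, but H2-Q genes are near-identical and their reads cannot be fully separated. Of 14 class II and co-stimulation genes 12 fell and 0 rose (median -0.70), among them H2-Ab1 (-0.84 ± 0.044), Cd86 (-1.65 ± 0.075) and Icosl (-1.65 ± 0.094). H2-DMb1 (-0.15 ± 0.078) and the class II regulator Ciita (-0.44 ± 0.47), the latter under 1 CPM in all 11 libraries, were not called. Among 20 genes by which myeloid cells restrain T cells 10 fell and 3 rose (median -0.25). Siglec1, a sialic acid receptor, fell most (-3.14 ± 0.072), and Trem2 (0.78 ± 0.04), Havcr2 (0.52 ± 0.065) and Tgfb1 rose.

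NRF2 targets, the antioxidant and detoxification genes driven by the transcription factor NRF2, rose in 24 of 28 cases (median 0.68). Hmox1, which breaks down heme, stood at 1981, 1885, 1886, 1822 and 1891 CPM with GW3965 and at 639.8 to 716.4 CPM with Vehicle (median 667.8) and rose 2.81-fold (log2 1.49 ± 0.024, adjusted p = 1.77e-40). Gclm, a subunit of the enzyme that starts glutathione synthesis, stood at 708.6, 728.7, 667.7, 714.1 and 711.6 CPM and at 280.1 to 317.3 CPM with Vehicle (median 286.2) and rose 2.42-fold (log2 1.27 ± 0.03, adjusted p = 1.60e-34). Cat (1.30 ± 0.021), Txnrd1 (1.22 ± 0.025) and Srxn1 (1.15 ± 0.021) rose as well, all without overlap. The cystine importer Slc7a11 went against them, at 20.9, 20.9, 21.9, 19.9 and 22.6 CPM with GW3965 and 31.6 to 45.3 CPM with Vehicle (median 39.2), and fell 1.87-fold (log2 -0.91 ± 0.086, adjusted p = 3.32e-12). The 2 ferritin chains also parted: Ftl1, the light chain, rose (0.62 ± 0.029) and Fth1, the heavy chain, fell (-0.43 ± 0.038). Cbr1 (-0.04 ± 0.063) and Aox1 (0.53 ± 0.26) were not called. In the promoter windows, TGACNNNGC, the core of the NRF2 element, stood in 9 of 31 windows of this list (29%) and in 14.1% of windows of all genes tested. It stood in 14.9% of windows of genes that rose and 13.5% of those that fell at least 2-fold. Among other lists it stood in 5 of 21 windows of MHC class I genes (23.8%), 6 of 37 of antiviral effectors (16.2%) and 2 of 11 of GTPases (18.2%). For chemokines it was 1 of 16 (6.25%) and for LXR targets 0 of 18. Antioxidant enzymes outside the NRF2 list had no common direction: of 18, 6 rose and 8 fell (median -0.06), with Prdx6 at 0.82 ± 0.046 and Prdx5 (-1.09 ± 0.048) and Sod2 (-1.05 ± 0.065) among those that fell.

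Enzymes that supply NADPH, which fatty acid synthesis and glutathione recycling both consume, rose in 11 of 16 cases and fell in 2 (median 0.37); 5 of them are also on the NRF2 list. Of the pentose phosphate pathway G6pdx (0.63 ± 0.023), Pgd (0.93 ± 0.023), Tkt (0.68 ± 0.033) and Taldo1 (1.02 ± 0.034) rose, and Rpia (-0.17 ± 0.08) and Rpe (-0.00 ± 0.051), which convert its sugar phosphates, were not called. Taldo1 stood at 1191, 1149, 1170, 1130 and 1124 CPM with GW3965 and at 538.4 to 586.4 CPM with Vehicle (median 569.2). Idh1 (0.91 ± 0.028) and Me1 (0.54 ± 0.055) rose, and Nadk, which makes NADP from NAD (-0.77 ± 0.021), and the folate enzyme Aldh1l1 (-0.71 ± 0.11) fell.

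Genes of the amino acid stress response driven by ATF4 rose in 17 of 22 cases and fell in 5 (median 0.69). Asns, which makes asparagine, stood at 112.1, 110.4, 100.7, 106 and 101.8 CPM with GW3965 and at 44.5 to 55.5 CPM with Vehicle (median 50.4) (1.08 ± 0.051). Atf4 itself rose by 0.68, Mthfd2 by 1.11 and the arginine transporter gene Slc7a1 by 1.10. Those that fell were Cebpb (-1.20 ± 0.13), the cell death factor gene Ddit3 (-0.50 ± 0.053), Nupr1 (-0.35 ± 0.059), Slc3a2 (-0.25 ± 0.028) and Sesn2 (-0.21 ± 0.041). Chaperones of the endoplasmic reticulum rose in 22 of 24 cases by less than 2-fold (median 0.35), with Hspa5 at 0.44 ± 0.022 and Sdf2l1 at 0.87 ± 0.036, and Herpud1 (0.02 ± 0.044) and Ero1l (-0.05 ± 0.066) were not called. Cytosolic ribosomal protein genes rose in 35 of 36 cases (median 0.36), from 0.18 for Rpl27, the one not called, to 0.56. Mitochondrially encoded subunits of the respiratory chain rose in 11 of 13 cases (median 0.60), as their share of all counts above was higher, and nuclear-encoded subunits in 19 of 42, with 2 that fell (median 0.10), or 1 without Vehicle replicate 3 or GW3965 replicate 4. Iron and heme genes rose in 11 of 19 cases and fell in 3 (median 0.34), the iron exporter gene Slc40a1 by 1.00 and the transferrin receptor gene Tfrc by 0.61.

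Of 19 eicosanoid synthesis genes 8 rose and 4 fell (median 0.14), the falls at the 21.1% share of all genes. Along the prostaglandin branch Ptges, the inducible prostaglandin E synthase gene, fell most (-1.83 ± 0.11), Ptgs2, which encodes cyclooxygenase 2, fell (-0.75 ± 0.068), and Tbxas1, the thromboxane synthase gene, rose (0.84 ± 0.035). Ptges stood at 8.78, 9.53, 8.47, 6.35 and 5.98 CPM with GW3965 and at 23.6 to 30.1 CPM with Vehicle (median 28.7), with no overlap. Of 13 scavenger receptor genes 6 rose and 3 fell (median -0.02), where 23.1% of all genes rose and 21.1% fell. Marco, a receptor for particles and bacteria, fell (-1.78 ± 0.093), as did the mannose receptor gene Mrc1 (-0.67 ± 0.032) and, with overlapping groups, Cd163 (-0.73 ± 0.24), which was not called with a replicate block on the 11 libraries (adjusted p = 0.0583). Msr1, which takes up modified lipoprotein, was not called (-0.02 ± 0.032). Of 14 alternative activation genes 4 rose, Egr2 most (0.85 ± 0.12), and 5 fell, Socs3 most (-1.62 ± 0.1), with a median of -0.06. Of 24 immediate early and MAP kinase phosphatase genes 10 rose and 10 fell (median 0.01), Dusp4 rising by 1.6 and Btg2 falling by 0.93.

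Glycolysis genes rose in 12 of 22 cases and fell in 5 (median 0.09). Of all genes 23.1% rose and 21.1% fell, so the glycolysis falls were near the share of all genes. The falls were led by Pfkfb3 (-0.83 ± 0.038) and Pfkfb4 (-0.70 ± 0.072), whose products make the activator of phosphofructokinase, and Hk2 (-0.63 ± 0.092), while another hexokinase gene, Hk3 (0.53 ± 0.024), rose. Fatty acid oxidation genes rose in 12 of 25 cases and 1 fell, Acaa1a (-0.23 ± 0.04), with a median of 0.09 and Hadhb, a subunit of the trifunctional protein, at 0.44 ± 0.053. Constitutive proteasome genes rose in 14 of 28 cases and fell in 3 (median 0.08), none of them 2-fold. Those that fell were Psma6 (-0.23 ± 0.041), Psmc5 (-0.19 ± 0.032) and Psma1 (-0.16 ± 0.036), and 5 fell under 7 of the 22 alternative settings.

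Pcna, which encodes the sliding clamp of DNA polymerase, stood at 408.5, 414.6, 407.5, 393.5 and 393.9 CPM with GW3965 and at 149.5 to 175.3 CPM with Vehicle (median 164.3) and rose 2.48-fold (log2 1.31 ± 0.038, adjusted p = 8.46e-31). Of 32 DNA replication genes 7 rose, 3 fell and 22 were not called (median 0.04), beside 23.1% and 21.1% of all genes that rose and fell, and Pcna alone passed 2-fold. Ung (0.88 ± 0.2), Gins1 (0.74 ± 0.13) and Mcm6 (0.49 ± 0.037) were next, and Pola2 (-0.27 ± 0.059), Rfc3 (-0.21 ± 0.073) and Fen1 (-0.11 ± 0.043) fell. Rfc3 was not called without Vehicle replicate 2 (adjusted p = 0.0548), nor Fen1 without Vehicle replicate 1 (0.0758), without GW3965 replicate 4 (0.0697) or with a replicate block on the 11 libraries (0.0896). Of 24 mitosis genes 19 were not called, 4 fell and 1 rose (Kif11, 0.39 ± 0.14). Those that fell were Hmmr (-1.37 ± 0.13), Mki67 (-0.96 ± 0.2), Cdk1 (-0.32 ± 0.077) and Top2a (-0.27 ± 0.11). The calls of Kif11 and Top2a were lost under 9 and 12 of 22 alternative settings. Of cyclins and cell cycle inhibitors 8 of 22 rose and 7 fell (median 0.05), with Cdk6 (0.94 ± 0.077) and Myc (0.86 ± 0.05) up and Mxd1 (-0.81 ± 0.097) and Cdkn1b (-0.49 ± 0.055) down.

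Macrophage markers changed in both directions. Summed over 10 genes they stood at 12254 to 12740 CPM with GW3965 and at 22890 to 24930 with Vehicle, 7 fell and 3 rose. Adgre1, which encodes F4/80, stood at 1612, 1663, 1648, 1710 and 1809 CPM with GW3965 and at 4170 to 4546 CPM with Vehicle (median 4340) and fell 2.58-fold (log2 -1.37 ± 0.031, adjusted p = 3.83e-35). Every GW3965 library was below every Vehicle library. Of the monocyte markers Ly6c2 fell most (-3.27 ± 0.58), while Treml4 rose by 1.17 without overlap and Ace by 2.55 with overlapping groups. Ly6c2 ran from 0 to 0.212 CPM with GW3965 and from 0.391 to 1.1 with Vehicle. Ace reached at most 0.606 CPM in any of the 11 libraries. Both are too close to 0 for a firm fold change. Itgam (-1.19 ± 0.036) and Lyz2 (-1.05 ± 0.057) fell and Cd68 rose slightly (0.11 ± 0.023). Lysosomal genes rose in 15 and fell in 16 of 37 cases (median -0.04), with Ctsc, the cathepsin that activates serine proteases (-1.87 ± 0.032), and Ctsl (-0.93 ± 0.031) falling. Of 27 protease and matrix genes 17 fell and 4 rose (median -0.23), in the direction of the stromal markers. Plau, the urokinase gene (1.64 ± 0.044), and Mmp12, the macrophage elastase gene (1.18 ± 0.037), rose, and Mmp9 (-2.03 ± 0.088) and F13a1 (-1.91 ± 0.085) fell. Pecam1, listed as a stromal and endothelial marker but also made by myeloid cells, fell 10.1-fold (log2 -3.33 ± 0.13, adjusted p = 4.15e-26).

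Some of the widest changes were in genes outside the lists. Ighm (ENSMUSG00000076617, chromosome 12, 113418558 to 113422730, minus strand), the constant region of the immunoglobulin M heavy chain, stood at 7.62, 6.82, 7.85, 7.85 and 5.89 CPM with GW3965 and at 0.445 to 1.74 CPM with Vehicle (median 0.913) and rose 6.96-fold (log2 2.80 ± 0.3, adjusted p = 8.45e-11). The B cell markers Cd79a, Ms4a1 and Pax5 were at 0 in every GW3965 library, while Cd79b stood at 2.22, 1.74, 2.46, 2.14 and 2.5 CPM with GW3965 and at 3.13 to 4.24 CPM with Vehicle (median 3.51) and fell (-0.71 ± 0.13). Efr3b (2.26 ± 0.094) and Shisa9 (2.42 ± 0.2) were among the 15 highest, and Fcrl1, which adjoins Cd5l on chromosome 3, rose by 1.74 beside it. Slc13a3, a carrier of dicarboxylates, stood at 4.71, 6.14, 4.98, 4.14 and 5.7 CPM with GW3965 and at 82.8 to 104.1 CPM with Vehicle (median 89.5) and fell 17.9-fold (log2 -4.16 ± 0.09, adjusted p = 2.44e-35). Ms4a4c (ENSMUSG00000024675, chromosome 19, 11404770 to 11427246, plus strand) stood at 0.466 to 1.38 CPM and at 63.2 to 72.3 CPM with Vehicle (median 67.5), and the adjacent Ms4a4a at 7.99, 6.4, 6.82, 7.49 and 8.15 CPM and at 118.8 to 150.8 CPM with Vehicle (median 132.2). Both fell, by 6.16 and 4.19 on the log2 scale. Falls were found in other clusters of related genes too: Ifi206 (-4.39 ± 0.13) and Ifi213 (-4.18 ± 0.13) on chromosome 1, and Ly6i (-4.16 ± 0.11), Ly6a (-2.86 ± 0.066) and Ly6e (-2.06 ± 0.037) on chromosome 15. Reads of such relatives may have been shared. Gpr18 (-4.45 ± 0.24) lies within Ubac2, which fell by 0.37.

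The other LXR ligands were set beside GW3965 in the same fit, with 5 libraries each. Doses are not in the labels, so a difference between compounds cannot be told apart from a difference in dose. These comparisons share the GW3965 libraries with the one against Vehicle. Against 27HC 25.3% of genes differed, 12.5% higher and 12.8% lower with GW3965. LXR targets were higher than with 27HC in 16 of 19 cases and lower in 0 (median 1.04). Antiviral effectors were lower than with 27HC in 37 of 41 (median -0.65). With 27HC Isg15 stood at 23.8 to 33.6 CPM, Ifit3 at 31 to 51.9 and Slfn2 at 268.2 to 286.2. These levels were also below those with Vehicle, at 127 to 149.2, 293.1 to 325.6 and 438.1 to 473.9 CPM. 27HC was not tested against Vehicle here. Cholesterol synthesis genes, which had no common direction against Vehicle, were higher than with 27HC in 21 of 25 cases and lower in 0 (median 0.99). Hmgcs1, for example, stood at 75.3 ± 2.36 CPM with Vehicle (SD, n = 6), 55.5 ± 2.35 with GW3965 and 29.2 ± 1.76 with 27HC (SD, n = 5 each), a difference between the agonists of log2 0.92 ± 0.04, adjusted p = 2.57e-23. NRF2 targets were higher than with 27HC in 25 of 28 cases and lower in 1 (median 0.65), with Gclm at 302.3 ± 6.91 CPM with 27HC (SD, n = 5) against 706.1 ± 22.8 with GW3965 (SD, n = 5). DNA replication genes were lower than with 27HC in 20 of 32 cases and higher in 1, Pcna (median -0.28).

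Some levels with the 2 agonists were close, whether or not the difference passed the test. Plau stood at 237.6 ± 15.8 CPM with 27HC and 202.8 ± 6.55 with GW3965 (SD, n = 5 each), above 65.2 ± 5.79 with Vehicle (SD, n = 6), and was slightly lower with GW3965 (log2 -0.23 ± 0.044, adjusted p = 6.23e-05). Dusp4, a phosphatase of MAP kinases, stood at 36.3 ± 2.24 CPM with 27HC and 34.9 ± 1.51 with GW3965 (SD, n = 5 each) and did not pass the test (log2 -0.06 ± 0.059, adjusted p = 0.55). H2-K1 stood at 1449 ± 52.0 CPM with 27HC and 1560 ± 60.9 with GW3965 (SD, n = 5 each), and was a little higher with GW3965 (log2 0.11 ± 0.032, adjusted p = 0.00994). Cd14 differed widely, at 1116 ± 27.9 CPM with 27HC (SD, n = 5).

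Against the antagonist GSK2033 46.5% of genes differed, 23.8% higher and 22.6% lower with GW3965. LXR targets were higher in 18 of 19 cases (median 2.81), the exception being Nr1h3, which was lower. All 41 antiviral effectors (median -2.15) and all 15 GTPases (median -3.54) were lower with GW3965. NRF2 targets were higher than with GSK2033 in 22 of 28 cases and lower in 3 (median 0.58), and cholesterol synthesis genes in 21 of 25 and lower in 0 (median 0.85). Insig1 stood at 31.8 ± 1.26 CPM with GSK2033 (SD, n = 5), below 70.6 ± 3.2 with Vehicle (SD, n = 6), and Hmox1 at 910.7 ± 11.8 CPM with GSK2033 (SD, n = 5), above 674.0 ± 30.9 with Vehicle (SD, n = 6).

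**Figure D5:**
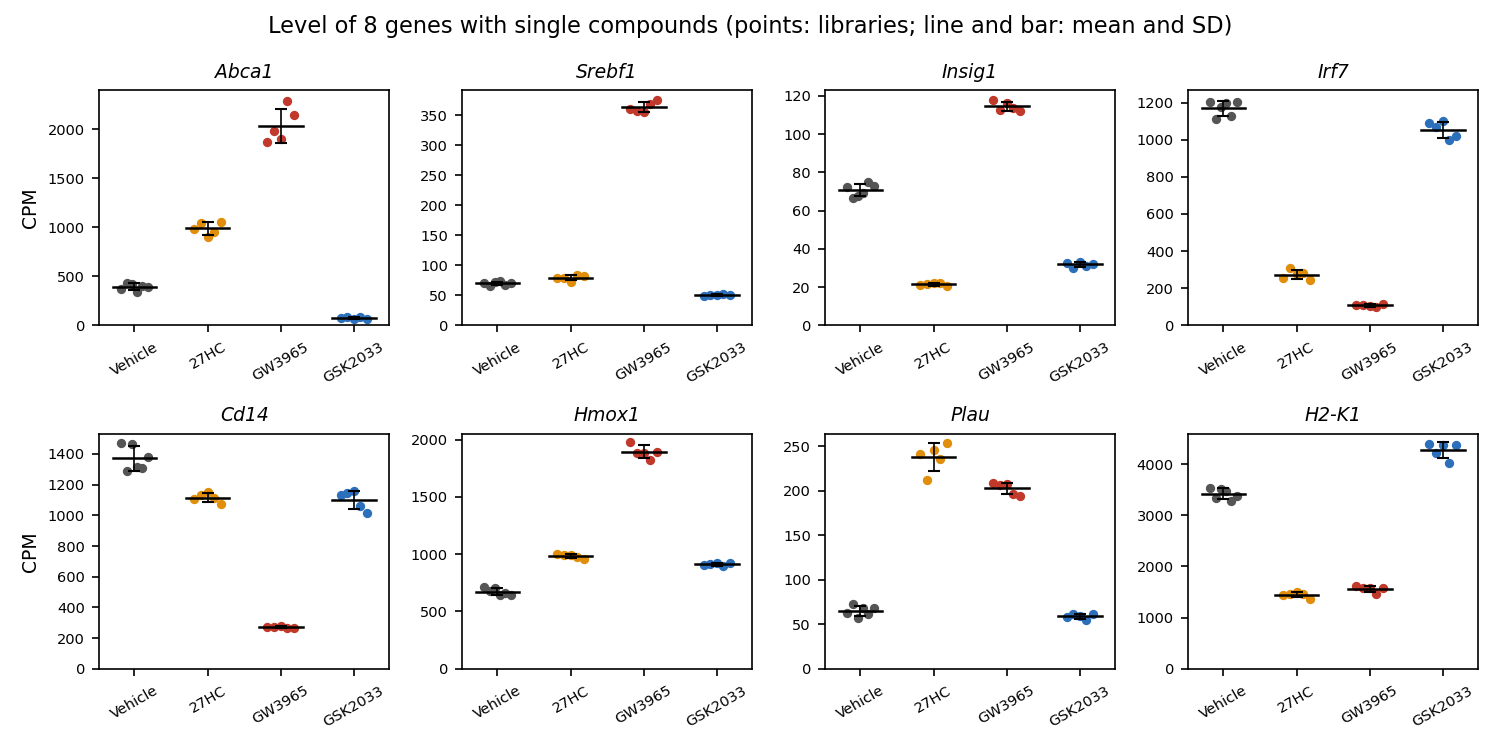
Each panel plots 1 gene's level in CPM on a linear axis from 0 in 6 Vehicle, 5 27HC, 5 GW3965 and 5 GSK2033 libraries (points), with the mean as a line and the SD as a bar. Abca1, Srebf1, Insig1 and Hmox1 are highest and Irf7 and Cd14 lowest with GW3965, while Plau and H2-K1 stand near each other with 27HC and GW3965.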

How the data were processed

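Bulk RNA of 46 libraries of bone marrow-derived macrophages was sequenced, and the 5 GW3965, 6 Vehicle, 5 27HC and 5 GSK2033 libraries were compared here. The authors deposited estimated counts per gene, made with kallisto 0.44.0 on GRCm38 per the submitters' processing notes. How transcripts were summed to genes, and whether a length correction was applied, is not given in the sources used here. Of values above 0, 11.7% were whole within 0.02, and all were rounded to whole numbers, which moved a library total by at most 133. Of 24671 gene identifiers 24279 matched GENCODE M21, which gave names and coordinates. The other 392 held 0.455% of the counts.

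Genes were tested with edgeR 4.0.16 (R 4.3.3): filterByExpr, TMM scaling, and the robust quasi-likelihood F-test with 1 mean per treatment over all 46 libraries (37 residual degrees of freedom), with Benjamini-Hochberg adjustment over 13838 genes. The same fit gave the contrasts with 27HC and GSK2033. The intervals of fold changes are at the 95% level, and ± after a log2 value is its standard error. The biological coefficient of variation was 7.55%. CPM use TMM-scaled library sizes. They are not corrected for length, so levels of different genes are not compared. The script was tested on simulated counts. Alternatives used DESeq2 1.42.0, limma 3.58.1, other scalings, filters and sample sets, and a replicate block.

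Genes were named by a rule: the receptor genes, from each list the called members ranking first by p, at most 8, and all members of a direction (or not called) that numbered 5 or fewer, the 15 highest and 15 lowest called fold changes at 5 CPM or more without overlap, and their neighbours called in the same direction. The comparison, the rule and the lists were chosen with earlier results of these data known. Of the genes tested, 10279 had RefSeq promoter windows. A few items that the rule names are not reported here.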

Additional observations from a re-analysis of the deposited data

Results flagged for a closer look

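In 26 of 456 checks of a named gene within a group, 1 library lay further from the rest than Dixon's limit, 13 among GW3965 and 13 among Vehicle libraries, where chance alone gives about 1 in 20 such checks. In GW3965 replicate 1 this concerned Ifit3 at 19.2 CPM (others 15.4 to 16), Lpl at 7981 CPM (others 7528 to 7620) and Rxra at 122 CPM (others 129 to 132). GW3965 replicate 2 stood apart for Irf3 at 39.4 CPM (others 36 to 36.9). In GW3965 replicate 3 this concerned Clec4e at 56.2 CPM (others 43.1 to 46.5) and Tbxas1 at 170 CPM (others 144 to 150). GW3965 replicate 4 stood apart for Fcgr2b at 20 CPM (others 18.4 to 18.6), Gpr183 at 30.8 CPM (others 28.8 to 29.1), H2-DMb1 at 17.9 CPM (others 24 to 24.9) and H2-K1 at 1456 CPM (others 1573 to 1617). In GW3965 replicate 5 this concerned Ace at 0.0471 CPM (others 0.466 to 0.606), Cd55 at 4.62 CPM (others 2.92 to 3.33) and Nr1h3 at 51.1 CPM (others 39.6 to 42.5). Vehicle replicate 1 stood apart for Pecam1 at 17 CPM (others 12.9 to 14.2) and Sesn2 at 41.3 CPM (others 37.8 to 39). In Vehicle replicate 3 this concerned Aldh1l1 at 24.8 CPM (others 14.8 to 17.2), Bscl2 at 66.9 CPM (others 59.6 to 61.3) and G6pdx at 244 CPM (others 225 to 231). Vehicle replicate 4 stood apart for Cd5l at 124 CPM (others 94 to 104), Psmc5 at 114 CPM (others 120 to 123), Srxn1 at 150 CPM (others 156 to 159) and Tnfaip3 at 48.2 CPM (others 42.4 to 44.1). In Vehicle replicate 6 this concerned Ctsl at 1532 CPM (others 1397 to 1446), Hmmr at 3.98 CPM (others 3.4 to 3.52), Mmp12 at 205 CPM (others 165 to 175) and Mxd1 at 12.2 CPM (others 12.9 to 13.2). Each of these genes that was called kept its call whichever of the 11 libraries was left out.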

How the results depend on the processing

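The calls were repeated under 22 alternatives. Between them 2706 to 3212 genes rose and 2758 to 3067 fell, and no gene called in the comparison was called in the opposite direction. A filter of at least 5 CPM in 5 libraries left 10547 genes, of which 113 rose and 361 fell at least 2-fold, because fewer scarce genes were tested. Leaving out 1 library at a time gave 2867 to 3149 genes that rose, 2795 to 2963 that fell, 202 to 220 that rose at least 2-fold and 542 to 574 that fell at least 2-fold. GW3965 and Vehicle libraries of the same replicate number had deviations from their group means correlated between -0.02 and 0.009. These correlations cannot tell whether such libraries shared a culture or an animal, which the labels do not say. With the replicate block 3190 genes rose and 2934 fell over all libraries, and 2706 and 2758 over the 11 alone.

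Of 228 genes named, 8 lost their call under at least 1 alternative, 5 gained one and 0 changed direction. Rxrb was called lower under 14 of the 22, at -0.08 to -0.10. Kif11 was lost under 9, with adjusted p of 0.0593 to 0.176, and Top2a under 12, with 0.0546 to 0.141. C5ar1 was lost under 10 (0.0572 to 0.161) and Irak1 under 4, including without GW3965 replicate 2 (adjusted p = 0.0622), 3 (0.078) or 4 (0.126). Fen1 was lost with the replicate block on 11 libraries (0.0896), without Vehicle replicate 1 (0.0758) and without GW3965 replicate 4 (0.0697), Rfc3 without Vehicle replicate 2 (0.0548) and Csf1 without GW3965 replicate 3 (0.051). Cxcl11, Aox1, Rpia and Rpl27 gained a call, Cxcl11 without Vehicle replicate 1 (adjusted p = 0.0445), 2 (0.0485) or 5 (0.0246) and without GW3965 replicate 1 (0.0369) or 5 (0.0409). Aox1 did so with the replicate block on all libraries (0.0498) and without Vehicle replicate 6 (0.0497) or GW3965 replicate 4 (0.047), Rpia with the stricter filter (0.0478) and without Vehicle replicate 5 (0.0198) or GW3965 replicate 3 (0.0422), and Rpl27 with the 11 libraries only (0.00479), either replicate block (0.0331 and 0.0201) and without Vehicle replicate 5 (0.0446). The cause was not tested. Nuclear receptor genes that rose numbered 4 instead of 7 without a filter and without GW3965 replicate 3 or 4. Cd163 lost its call with the block on 11 libraries (adjusted p = 0.0583). Iron genes that fell numbered 1 instead of 3 with the block on 11 libraries. The mitochondrially encoded list has no value where its genes were left out of the scaling. Scarce genes such as Scd4, Slfn1, Ly6c2, Ace, Cxcl11 and Lbp are limited by depth.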
